A study of Anas platyrhynchos with 11 samples.

Results

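Cadherins are calcium-dependent adhesion proteins that join cells to their neighbours, and catenins are the cytoplasmic proteins that tie the classical cadherins to actin. The set described here holds every gene of the deposited duck table whose name begins as a numbered cadherin (CDH), a protocadherin (PCDH), a Dachsous cadherin (DCHS), a flamingo cadherin (CELSR) or a catenin (CTNN), together with FAT1 to FAT4 and without CDH23 and PCDH15. These were 46 of 16823 genes. By role they were 5 type I classical cadherins, 9 type II classical cadherins, 3 other cadherins, 11 protocadherins, 6 Fat or Dachsous cadherins, 3 flamingo cadherins, 6 catenins and 3 catenin-related genes. The rule reads gene names and no measured value.

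RNA came from Meissner corpuscles of duck (Anas platyrhynchos) bill skin, the touch end organs in which lamellar cells surround a sensory nerve ending, and from skin cells nearby that contained no corpuscle. There were 5 corpuscle libraries, each pooled from several corpuscles aspirated whole, so lamellar cells, nerve ending and anything adhering share 1 value, and 6 skin libraries. No genotype, treatment or age is given for either group. Corpuscle libraries were all made with the NEBNext Single Cell/Low Input kit and skin libraries all with the Kapa mRNA Hyper Prep kit, so the tissue and the kit cannot be told apart in any difference below. The labels name 3 skin isolations without assigning libraries to them, and p-values therefore describe only the spread between these libraries.

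Classical cadherins bind like to like across the gap between cells, and their tails hold beta-catenin, which holds alpha-catenin, while p120-catenin (CTNND1) keeps the complex at the membrane. In skin, E-cadherin (CDH1) and P-cadherin (CDH3) are known from epidermis, VE-cadherin (CDH5) from vessel walls, N-cadherin (CDH2) from neurons and neural crest derivatives, and CDH11 from mesenchyme. Protocadherins are adhesion and recognition molecules best known from the nervous system. The giant Fat and Dachsous cadherins and the flamingo cadherins act in growth control and planar cell polarity.

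Total counts per library ran from 5766279 to 11886808 in corpuscles and from 13263776 to 20925841 in skin. Corpuscle 4 was the shallowest library and stood apart from the other corpuscles on the second principal component (14.5% of variance, a score of -116 against -20.6 to 47.1). It gave the highest corpuscle value for 19 of the 46 genes. A set of 43 genes proper to other organs, such as liver and retina, was also highest there, with a median of 2.09 FPKM against 0.716 to 1.15 FPKM in the other corpuscles and 0.0801 to 0.142 FPKM in skin. Their 95th percentile in corpuscles, 5.49 FPKM, is called the unrelated-organ level here, and 32 of the 46 genes lay at or under that level there. By summed level, each skin library carried more of the keratinocyte, fibroblast and endothelial marker lists than any corpuscle library. It carried less of the Merkel cell and sensory neuron lists, whose corpuscle sums were mostly CHGB and UCHL1, as given beside the genes.

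Counts were compared between corpuscles and skin with edgeR's quasi-likelihood test over 14638 genes, at a Benjamini-Hochberg adjusted p of 0.05. Levels are counts scaled to library size with TMM factors (CPM). A log2 fold change gives corpuscles relative to skin, with ± its standard error, and a mean level carries ± its SD over 5 corpuscle or 6 skin libraries. Of the 45 genes of the set that passed the filter on low counts, 18 were higher and 12 lower in corpuscles, and 15 were not called. With a stricter filter, at least 5 CPM in 5 libraries, the counts were 12 higher and 6 lower of 38. Over all genes that filter gave 3225 higher and 2486 lower of 11284, so the set's called share was not above theirs. Within the subset of corpuscles 4 and 5 with skin 5 and 6 the set gave 10 higher and 7 lower. All genes gave 3776 higher and 1514 lower in it. That subset is a fit of 4 libraries, so a call can be lost there without a smaller fold change. In the main fit the share called was 66.7%, against 56.4% of all genes tested. Among all genes 33.0% were called higher and 23.5% lower. Counts by role or list below concern few genes each and are to be read beside these shares. The median log2 fold change was 0.24 over the set and 0.18 over all genes tested. In 18 of the 45 no corpuscle library overlapped any skin library, while 41.3% of all genes tested had no such overlap. Among those 18, CDH6, CDH9 and CDH15 passed the filter only through corpuscles, which fixed their lack of overlap. The stricter filter also turned the sign of CDH1, CELSR1, CTNNA1, CTNNAL1 and PCDH1, none of them called. Because these are bulk samples, fewer cells of a type and less RNA per cell cannot be told apart in any value below.

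**Figure D1:**
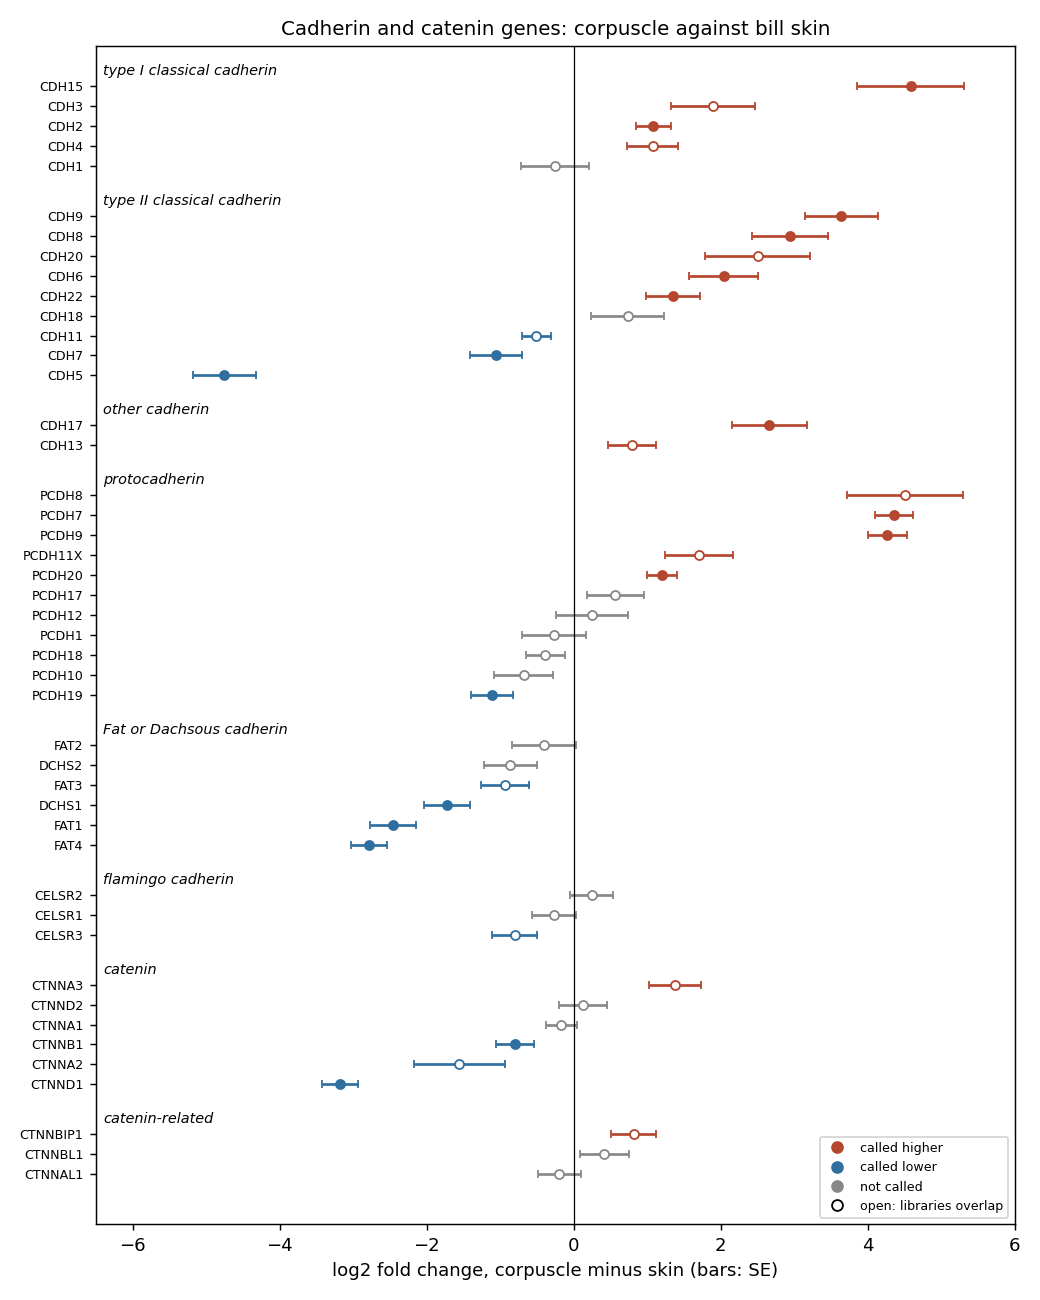
Log2 fold change (x axis, corpuscle minus skin, bars are SE) of the 45 tested genes, grouped by role, from 5 corpuscle and 6 skin libraries. Red points were called higher, blue lower and grey not called, and open points mark genes whose corpuscle and skin libraries overlap. PCDH7 and PCDH9 lie above 4 with short bars, and CDH5 lies lowest at -4.75.

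Among the protocadherins, called at 54.5% against 56.4% of all genes tested, 5 of 11 rose in corpuscles, 1 fell and 5 were not called. PCDH7 and PCDH9, of the delta-1 group, had the largest differences among those whose libraries did not overlap. PCDH7 was at 745, 752, 300.3, 452 and 628 CPM in corpuscles 1 to 5 and at 22.3 to 34.3 CPM in skin (median 28.8 CPM). Even the lowest corpuscle library lay far above the highest skin library, and the log2 fold change was 4.36 ± 0.26 with adjusted p = 3.23e-08. The fitted fold was 20.5. PCDH9 was at 214, 244, 338, 161 and 199 CPM in corpuscles 1 to 5 and at 9.34 to 15.2 CPM in skin (median 11.7 CPM). It rose by 4.27 ± 0.26 on the log2 scale (adjusted p = 3.23e-08), a fitted fold of 19.3, again with no overlap. Corpuscle 3 was the lowest of the 5 for PCDH7 and the highest for PCDH9, so the 2 genes did not follow the same order over corpuscles. Per length PCDH7 stood at 40.3 ± 14.1 FPKM in corpuscles and 2.06 ± 0.327 FPKM in skin, and PCDH9 at 30.4 ± 8.97 FPKM in corpuscles and 1.66 ± 0.365 FPKM in skin. Both were above the unrelated-organ level in corpuscles and passed the test in all 22 alternatives.

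Markers of Merkel cells, mechanosensory cells with neuroendocrine traits, were also higher in corpuscles as a list. Of 8 listed 7 were called higher, and PIEZO2 was not called (log2 fold change -0.39 ± 0.22, adjusted p = 0.155). The summed level of the list was 14537 to 79428 CPM in corpuscles and 1202 to 2470.0 CPM in skin. Most of that sum was CHGB, at 12589.1 to 68294.5 CPM in corpuscles and 738 to 1548 CPM in skin. Of 7 sensory neuron markers 3 were called higher and 1 lower, with sums of 215 to 1438 CPM in corpuscles and 62.3 to 99.0 CPM in skin. UCHL1 made up most of the corpuscle sums, at 198 to 1249 CPM in corpuscles and 29.6 to 63.0 CPM in skin. It was 197.6 of 214.5 CPM in corpuscle 5 and 37.6 of 62.3 CPM in skin 3, so the separation of the sums rested on UCHL1. None of the markers of either list was at 0 in either tissue. The part of either cell type in the protocadherin values was not tested.

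PCDH20, another protocadherin, was at 209.5, 251, 137, 195 and 156 CPM in corpuscles 1 to 5 and at 69.0 to 95.8 CPM in skin (median 79.6 CPM). Every corpuscle was above every skin library, with a log2 fold change of 1.21 ± 0.21 (adjusted p = 0.000151), and all 22 alternatives called it. PCDH11X, of the delta-1 group, was at 12.7, 34.5, 10.1, 75.5 and 60.2 CPM in corpuscles 1 to 5 and at 9.49 to 12.9 CPM in skin (median 12.2 CPM). Corpuscles 2, 4 and 5 lay above all skin libraries, while corpuscles 1 and 3 lay within the skin range. It rose by 1.70 ± 0.46 on the log2 scale (adjusted p = 0.00563) but was not called when corpuscles 4 and 5 were left out (log2 fold change 0.68, adjusted p = 0.119). PCDH8, of the delta-2 group, averaged 18.9 ± 16.7 CPM over corpuscles and 0.822 ± 0.312 CPM over skin libraries and rose by 4.50 ± 0.79 (adjusted p = 0.000193). Its corpuscle values split, with 39.9, 27.2 and 23.6 CPM in corpuscles 1, 2 and 4 but 0.649 and 2.97 CPM in corpuscles 3 and 5, and corpuscle 3 lay inside the skin range of 0.454 to 1.18 CPM. The PCDH8 fold was smaller with limma-voom (log2 fold change 3.43, adjusted p = 0.00556), and the call was lost in the subset of corpuscles 4 and 5 with skin 5 and 6 (log2 fold change 3.78, adjusted p = 0.0548). At 4.26 and 4.91 FPKM in corpuscles, PCDH11X and PCDH8 lay under the unrelated-organ level.

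PCDH19, a delta-2 protocadherin known to act with N-cadherin, was the single protocadherin that fell. It was at 30.9, 47.5, 32.9, 49.4 and 15.5 CPM in corpuscles 1 to 5 and at 68.1 to 84.8 CPM in skin (median 76.1 CPM), with no overlap and a log2 fold change of -1.11 ± 0.29 (adjusted p = 0.00425). In the subset of corpuscles 4 and 5 with skin 5 and 6 it did not pass (log2 fold change -1.32, adjusted p = 0.155). PCDH18, also of the delta-2 group, was one of the most abundant protocadherins in both tissues. It was at 115, 159, 49.1, 148 and 160.4 CPM in corpuscles 1 to 5 and at 152 to 188 CPM in skin (median 162 CPM), and was not called (log2 fold change -0.39 ± 0.26, adjusted p = 0.222). Corpuscle 3 was well under the rest, corpuscles 1 and 4 lay under skin, and corpuscles 2 and 5 within it.

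The other members of the family were low. PCDH10 was at 25.3, 4.80, 15.1, 38.6 and 21.1 CPM in corpuscles 1 to 5 and at 29.6 to 39.4 CPM in skin (median 31.8 CPM), with corpuscle 4 within the skin range and the rest under it. It did not pass (log2 fold change -0.68 ± 0.40, adjusted p = 0.165). It was called lower without corpuscle 4 (log2 fold change -1.02, adjusted p = 0.0319). PCDH1, the delta-1 member known from epithelium, was at 17.1, 69.5, 8.62, 19.3 and 23.8 CPM in corpuscles 1 to 5 and at 21.2 to 39.6 CPM in skin (median 35.8 CPM). Corpuscle 2 alone exceeded the skin range, and the gene was not called (log2 fold change -0.27 ± 0.44, adjusted p = 0.627) but was called lower without corpuscle 2 (log2 fold change -0.96, adjusted p = 0.0231). PCDH17 was at 38.3, 20.7, 20.2, 30.7 and 6.30 CPM in corpuscles 1 to 5 and at 12.0 to 20.7 CPM in skin (median 15.7 CPM), with corpuscle 3 inside the skin range and corpuscle 5 under it. It was not called (log2 fold change 0.57 ± 0.39, adjusted p = 0.233), but was called higher without corpuscle 5 (log2 fold change 0.81, adjusted p = 0.0345). PCDH12, a protocadherin of endothelium, averaged 6.68 ± 6.86 CPM over corpuscles and 5.58 ± 0.831 CPM over skin libraries and was not called (log2 fold change 0.24 ± 0.49, adjusted p = 0.692). Without corpuscle 4, which held 18.8 CPM against 2.48 to 4.77 CPM in the others, its sign turned (log2 fold change -0.62, adjusted p = 0.103), and without corpuscles 4 and 5 it was called lower (log2 fold change -0.78, adjusted p = 0.0486). By group, 3 of 4 delta-1 protocadherins rose and 0 fell by edgeR's test, and 1 of 5 delta-2 protocadherins rose and 1 fell. This grouping was not laid down before the fit, and among all genes tested 33.0% were called higher and 23.5% lower. The difference between the groups was not tested.

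**Figure D2:**
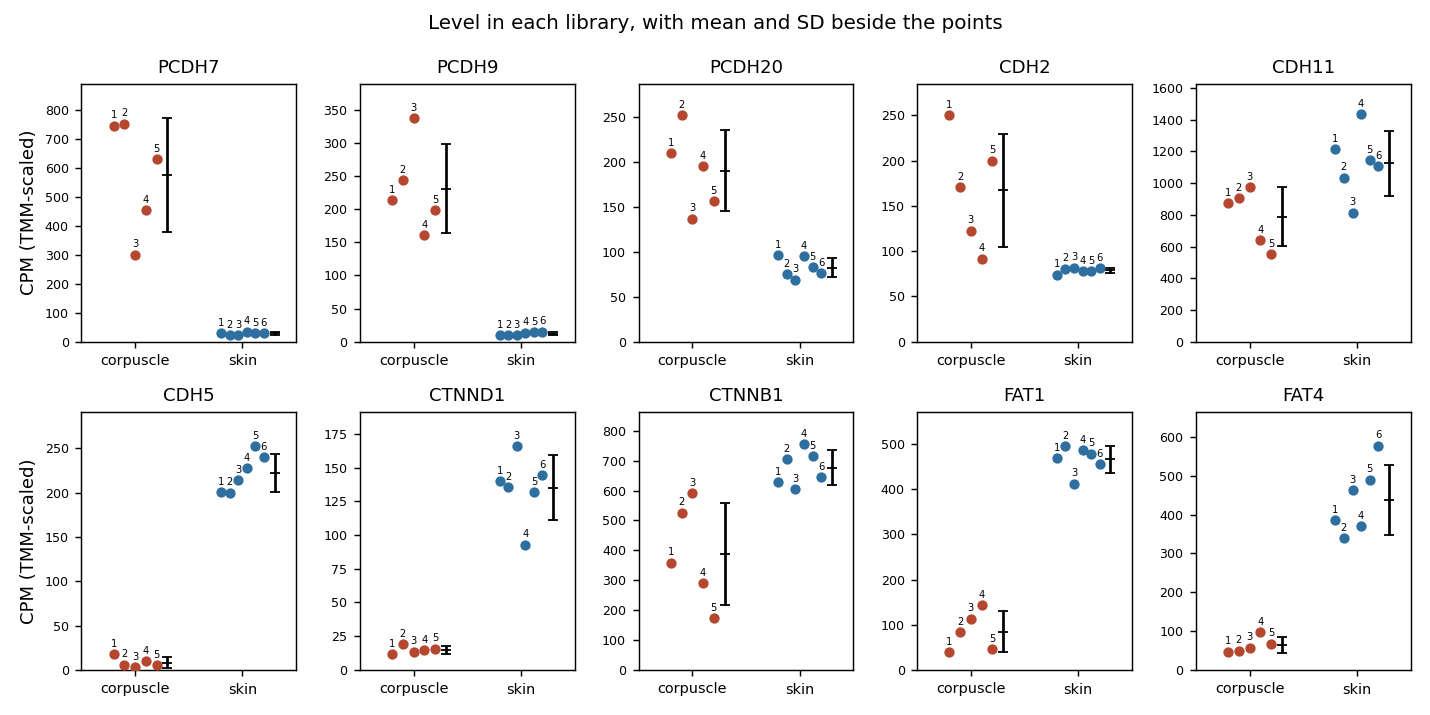
CPM on TMM-scaled library sizes (y axis, from 0) in each of 5 corpuscle libraries (red) and 6 skin libraries (blue) for 10 genes. Numbers beside points are replicate numbers, and the black bar gives mean and SD. PCDH7, PCDH9, PCDH20 and CDH2 have every corpuscle above every skin library, and CDH5, CTNND1, CTNNB1, FAT1 and FAT4 every corpuscle below, while CDH11 overlaps.

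Against 33.0% higher and 23.5% lower of all genes tested, 4 of the 5 type I classical cadherins rose and 0 fell by edgeR's test. N-cadherin (CDH2) was the most abundant of them per length in both tissues. It was at 250.4, 170.4, 123, 91.8 and 199.9 CPM in corpuscles 1 to 5 and at 74.1 to 81.8 CPM in skin (median 79.3 CPM). Corpuscles spread widely, whereas the 6 skin libraries were nearly equal, and the groups did not overlap. The log2 fold change was 1.08 ± 0.24 (adjusted p = 0.00135), and the call held in 21 of 22 alternatives. It was lost in the subset of corpuscles 4 and 5 with skin 5 and 6 (log2 fold change 0.99, adjusted p = 0.227). Markers of Schwann cells, the glia of peripheral nerve, went the other way, with 4 of 6 tested called lower, 0 higher, and sums of 851 to 1245 CPM in corpuscles and 1711 to 3048 CPM in skin. Among the Schwann markers S100B was listed at 0 in every library. Their part in the CDH2 values was not tested.

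E-cadherin (CDH1), the main cadherin of epithelia, was low in both tissues. It was at 13.7, 22.4, 12.3, 3.96 and 4.14 CPM in corpuscles 1 to 5 and at 8.41 to 21.8 CPM in skin (median 13.1 CPM), and was not called (log2 fold change -0.25 ± 0.46, adjusted p = 0.668). Corpuscles 4 and 5 were lowest and corpuscle 2 was highest of all 11 libraries. The sign differed between subsets, with a log2 fold change of 0.14 within corpuscles 1 to 3 and skin 1 to 4 (adjusted p = 0.799) and -1.41 in the subset of corpuscles 4 and 5 with skin 5 and 6 (adjusted p = 0.0825), and that difference was not tested. P-cadherin (CDH3), of basal epidermis and hair follicle in mammals, was at 49.7, 79.4, 10.0, 4.43 and 18.3 CPM in corpuscles 1 to 5 and at 5.60 to 10.9 CPM in skin (median 8.79 CPM). Corpuscles 1, 2 and 5 lay above every skin library, and corpuscles 3 and 4 within or under the skin range. Its log2 fold change was 1.90 ± 0.57 (adjusted p = 0.0108), and the call was lost without corpuscle 2 (log2 fold change 1.24, adjusted p = 0.0541). It was also lost with limma-voom (log2 fold change 1.29, adjusted p = 0.079) and in the subset of corpuscles 4 and 5 with skin 5 and 6 (log2 fold change 0.72, adjusted p = 0.541). Keratinocyte markers did not rise with it as a list. Among 6 such genes 1 was called higher and 4 lower, none was at 0, and their sum was 48.9 to 104 CPM in corpuscles and 318 to 1310.2 CPM in skin. Their part in the CDH3 values was not tested.

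The remaining type I genes were scarce. CDH4 (R-cadherin, of retina and brain) averaged 13.9 ± 4.45 CPM over corpuscles and 6.60 ± 1.60 CPM over skin libraries and rose by 1.07 ± 0.34 (adjusted p = 0.0148), corpuscle 1 overlapping skin. It was called in neither subset alone, with a log2 fold change of 0.80 within corpuscles 1 to 3 and skin 1 to 4 (adjusted p = 0.147) and 1.51 in the subset of corpuscles 4 and 5 with skin 5 and 6 (adjusted p = 0.0529). CDH15 (M-cadherin, of muscle satellite cells) averaged 2.77 ± 1.22 CPM in corpuscles, against 10 reads over all 6 skin libraries, and rose by 4.59 ± 0.73 (adjusted p = 8.05e-05). It passed the filter on low counts only through corpuscles. Without skin 6 its log2 fold change was 5.78, and in the subset of corpuscles 4 and 5 with skin 5 and 6 it was 3.92 and not called (adjusted p = 0.0543). At 1.59 and 0.808 FPKM in corpuscles, CDH4 and CDH15 lay under the unrelated-organ level.

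Type II classical cadherins went both ways, with 5 of 9 higher, 3 lower and 1 not called (all genes tested, 33.0% higher and 23.5% lower). The 3 that fell were the 3 most abundant per length in skin. CDH5 (VE-cadherin), which seals the junctions of vessel walls, had the lowest fold change of the whole set. It was at 18.0, 6.02, 2.69, 9.66 and 4.95 CPM in corpuscles 1 to 5 and at 200.2 to 252 CPM in skin (median 221 CPM). The highest corpuscle value was far under the lowest skin value, and the log2 fold change was -4.75 ± 0.43 (adjusted p = 6.41e-07). Every alternative called it. Endothelial markers fell with it, 7 of 8 called lower and 0 higher, with none at 0 and sums of 61.0 to 140.3 CPM in corpuscles and 932 to 1327 CPM in skin. Their part in the CDH5 value was not tested.

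CDH11, the cadherin of mesenchyme and bone, was the most abundant member of the set per length in both tissues, at 137 ± 33.2 FPKM in corpuscles and 206 ± 37.6 FPKM in skin. It was at 873, 907, 976, 639.8 and 550.4 CPM in corpuscles 1 to 5 and at 814 to 1435 CPM in skin (median 1126 CPM). Corpuscles 1 to 3 fell inside the skin range and corpuscles 4 and 5 under it. The log2 fold change was -0.51 ± 0.20 (adjusted p = 0.0398), and the call was lost without corpuscle 4 or 5 or skin 1, 2, 4 or 5 (log2 fold changes -0.52 to -0.41, adjusted p = 0.057 to 0.102). It held in 9 of 22 alternatives. Fibroblast markers were also lower as a list, with 6 of 8 called lower, 0 higher, none at 0, and sums of 13656 to 44839 CPM in corpuscles and 49060 to 79806 CPM in skin. COL1A2 was the largest part of every skin sum, at 21502 to 41290 CPM in skin and 2733 to 13725 CPM in corpuscles. The separation of the sums leaned on it, and COL3A1 and LUM were not called (log2 fold changes -0.28 and 0.06). The part of fibroblasts in the CDH11 value was not tested. CDH7, known in chick from migrating neural crest and glia, was at 26.5, 40.3, 28.1, 8.39 and 16.1 CPM in corpuscles 1 to 5 and at 43.1 to 63.0 CPM in skin (median 46.2 CPM). The groups came close without overlapping, and it fell with a log2 fold change of -1.06 ± 0.35 (adjusted p = 0.0181). The call was lost with the stricter filter (log2 fold change -0.81, adjusted p = 0.0603) and in the subset of corpuscles 4 and 5 with skin 5 and 6 (log2 fold change -1.76, adjusted p = 0.0798).

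The type II genes that rose were all under 20 CPM in corpuscles. CDH8, a cadherin of sensory and central neurons, averaged 13.9 ± 10.6 CPM over corpuscles and 1.79 ± 1.12 CPM over skin libraries and rose by 2.94 ± 0.52 (adjusted p = 0.000196). CDH9, known from synapses in mouse, averaged 3.96 ± 2.42 CPM over corpuscles and 0.308 ± 0.116 CPM over skin libraries, with 29 reads over all skin libraries, and rose by 3.64 ± 0.50. CDH22, known from brain, averaged 8.44 ± 1.85 CPM over corpuscles and 3.30 ± 1.33 CPM over skin libraries and rose by 1.35 ± 0.37. CDH6, known from kidney and nervous system, averaged 2.15 ± 1.20 CPM over corpuscles and 0.506 ± 0.176 CPM over skin libraries and rose by 2.04 ± 0.46. In these 4 genes no corpuscle overlapped skin, and each passed in every alternative that gave a value. CDH6 and CDH9 passed the filter on low counts only through corpuscles. Their lack of overlap was therefore set by that filter and gives no support. The stricter filter removed both genes. Fold sizes differed between the subset of corpuscles 1 to 3 with skin 1 to 4 and that of corpuscles 4 and 5 with skin 5 and 6, with log2 fold changes of 2.12 and 4.05 for CDH8, 3.02 and 4.41 for CDH9 and 1.34 and 3.30 for CDH6. Corpuscle 4 was highest for CDH8, at 32.5 CPM against 6.67 to 12.5 CPM in the other corpuscles. The same library was highest for CDH9 (7.92 CPM against 1.79 to 4.17 CPM) and CDH6 (4.12 CPM against 0.847 to 2.04 CPM). CDH20 rested on 1 library, with 40.7 CPM in corpuscle 5 against 1.60 to 5.00 CPM in the other corpuscles. Its log2 fold change of 2.50 ± 0.72 (adjusted p = 0.0077) was no longer called without that library (log2 fold change 0.88, adjusted p = 0.115). CDH18, a brain cadherin, averaged 6.53 ± 4.10 CPM over corpuscles and 3.90 ± 1.73 CPM over skin libraries and was not called (log2 fold change 0.73 ± 0.49, adjusted p = 0.221). Per length each of these genes was at 0.646 to 2.60 FPKM in corpuscles, under the unrelated-organ level.

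CDH13 (T-cadherin), which lacks the usual tail and is anchored by a lipid, was the second most abundant cadherin of the set per length in corpuscles, at 53.9 ± 29.6 FPKM in corpuscles and 32.6 ± 5.09 FPKM in skin. It was at 530.4, 394, 919, 145 and 607 CPM in corpuscles 1 to 5 and at 252 to 370.4 CPM in skin (median 295 CPM). Corpuscles 1, 2, 3 and 5 lay above every skin library and corpuscle 4 under every one. It rose by 0.80 ± 0.32 on the log2 scale, close to the threshold (adjusted p = 0.0478), and the call was lost without corpuscle 1, 3 or 5 or skin 1, 2, 4, 5 or 6 (log2 fold changes 0.48 to 0.83, adjusted p = 0.0636 to 0.194). It held in 10 of 22 alternatives. The authors' deposited table gives it a false discovery rate of 0.0683. Smooth muscle and pericyte markers, cells in which T-cadherin is also known, had 4 of 6 called lower and 0 higher, none at 0, with sums of 144 to 331 CPM in corpuscles and 611 to 905 CPM in skin. Their part in the CDH13 values was not tested. CDH17, of intestine and liver in mammals, averaged 3.76 ± 2.69 CPM over corpuscles and 0.575 ± 0.24 CPM over skin libraries. At 1.06 FPKM in corpuscles it lay under the unrelated-organ level. The CDH17 log2 fold change was 2.66 ± 0.51 (adjusted p = 0.000435). Without corpuscles 4 and 5 it was smaller and still called (log2 fold change 2.03, adjusted p = 0.00241). CDH26, which the filter on low counts removed, was at 0.709, 2.45, 4.91, 6.49 and 7.74 CPM in corpuscles 1 to 5, with 1 read over all 6 skin libraries. The authors' deposited table, whose fold changes run from corpuscle to skin, gives CDH26 a log2 value of -7.77 with a false discovery rate of 3.01e-06. At 1.48 FPKM in corpuscles CDH26 also lay under the unrelated-organ level.

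**Figure D3:**
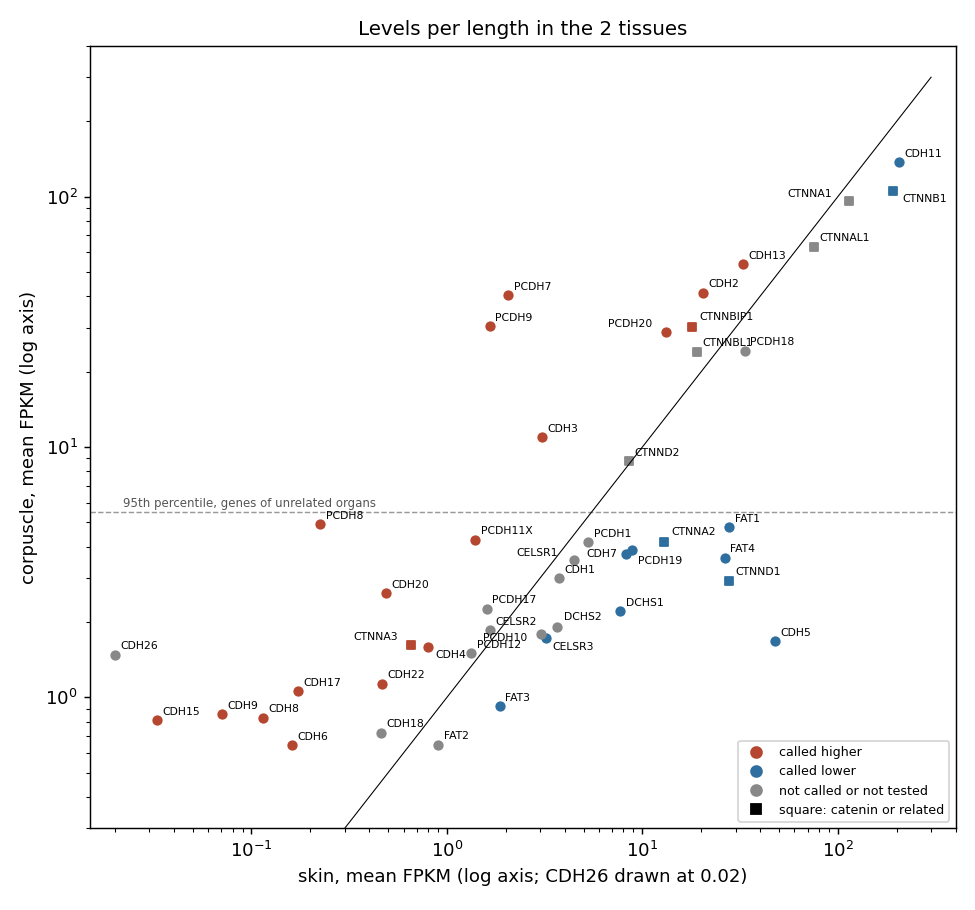
Mean FPKM in corpuscles (y axis) against skin (x axis), both on log axes, for the 46 genes, with circles for cadherins and squares for catenins and related genes. The solid line marks equal levels and the dashed line the unrelated-organ level in corpuscles, 5.49 FPKM. Of the 18 genes called higher (red) 7 lie above the dashed line.

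The giant Fat and Dachsous cadherins were lower in corpuscles as far as they were called, with 4 of 6 lower and 0 higher by edgeR's test. Their called share was 66.7%, against 56.4% of all genes tested, of which 23.5% were lower. FAT4, the receptor that binds Dachsous in vertebrates, was at 46.9, 49.6, 57.1, 96.6 and 67.5 CPM in corpuscles 1 to 5 and at 339 to 578 CPM in skin (median 425 CPM). Corpuscle 4 was the highest corpuscle and still lay far below skin, and the log2 fold change was -2.79 ± 0.24 (adjusted p = 4.85e-07). FAT1, an atypical cadherin of cell contacts and migration, was at 38.7, 84.0, 113, 143 and 45.6 CPM in corpuscles 1 to 5 and at 413 to 496 CPM in skin (median 474 CPM). It fell with a log2 fold change of -2.46 ± 0.31 (adjusted p = 1.06e-05) and had no overlap. DCHS1, a ligand of FAT4, was at 21.0, 47.0, 18.3, 43.7 and 18.0 CPM in corpuscles 1 to 5 and at 79.8 to 114 CPM in skin (median 96.1 CPM). Corpuscles 2 and 4 were well above the other corpuscles and still below skin, and the log2 fold change was -1.72 ± 0.31 (adjusted p = 0.000235). These 3 genes passed in all 22 alternatives.

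FAT3, known from neurons of retina and brain, was at 22.9, 20.04, 13.1, 36.4 and 26.8 CPM in corpuscles 1 to 5 and at 34.2 to 77.3 CPM in skin (median 40.7 CPM). It overlapped through corpuscle 4, and fell with a log2 fold change of -0.94 ± 0.33 (adjusted p = 0.0245). The call was lost with upper-quartile factors (log2 fold change -0.77, adjusted p = 0.0693) and with the stricter filter (log2 fold change -0.64, adjusted p = 0.127), and in the subset of corpuscles 4 and 5 with skin 5 and 6 (log2 fold change -0.92, adjusted p = 0.191). DCHS2, the paralogue of DCHS1, was at 15.2, 35.9, 20.4, 29.1 and 16.2 CPM in corpuscles 1 to 5 and at 22.9 to 63.5 CPM in skin (median 41.9 CPM), and narrowly missed the threshold (log2 fold change -0.86 ± 0.36, adjusted p = 0.0539). It was called lower without corpuscle 2 or 4 or skin 1 or 2 (log2 fold changes -1.08 to -0.95, adjusted p = 0.0218 to 0.0425). FAT2, an epidermal Fat cadherin in mammals, averaged 9.72 ± 6.16 CPM over corpuscles and 12.8 ± 5.59 CPM over skin libraries and was not called (log2 fold change -0.40 ± 0.44, adjusted p = 0.456). In skin FAT2 was 18.9, 19.0 and 15.03 CPM in skin 1 to 3 and 6.74 to 9.30 CPM in skin 4 to 6. Its sign differed between the subsets, within corpuscles 1 to 3 and skin 1 to 4 (log2 fold change -1.09, adjusted p = 0.0596) and in the subset of corpuscles 4 and 5 with skin 5 and 6 (log2 fold change 0.74, adjusted p = 0.401). The transcripts of this family are long. Per length FAT1 stood at 4.78 ± 2.44 FPKM in corpuscles and 27.8 ± 1.803 FPKM in skin, and FAT4 at 3.62 ± 1.08 FPKM in corpuscles and 26.4 ± 5.36 FPKM in skin. They held ranks 9 and 10 of the set in skin, and ranks 16 and 22 in corpuscles.

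Of the flamingo cadherins, seven-pass receptors of planar polarity, 1 of 3 fell and 0 rose by edgeR's test (all genes tested, 23.5% lower and 33.0% higher). CELSR1, the member best known from epidermal polarity, was at 45.6, 69.5, 20.9, 32.8 and 37.7 CPM in corpuscles 1 to 5 and at 38.9 to 53.3 CPM in skin (median 52.4 CPM), with no call (log2 fold change -0.27 ± 0.30, adjusted p = 0.46). Corpuscle 2 was above every skin library and corpuscle 3 the lowest of all. CELSR2, best known from brain, averaged 17.0 ± 4.44 CPM over corpuscles and 14.4 ± 2.49 CPM over skin libraries, also with no call (log2 fold change 0.24 ± 0.30, adjusted p = 0.504). CELSR3, a member known from axon guidance, was at 14.5, 14.4, 18.7, 31.0 and 24.1 CPM in corpuscles 1 to 5 and at 23.5 to 45.3 CPM in skin (median 36.3 CPM). It overlapped through corpuscles 4 and 5 and fell with a log2 fold change of -0.80 ± 0.30 (adjusted p = 0.0346). That call was lost without corpuscle 1, 2 or 3 or skin 1, 2, 3 or 5 (log2 fold changes -0.81 to -0.71, adjusted p = 0.0523 to 0.0881). It held in 11 of 22 alternatives.

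Catenins, which link the classical cadherins to actin, gave 3 of 6 lower, 1 higher and 2 not called (all genes tested, 23.5% lower and 33.0% higher). p120-catenin (CTNND1), which keeps cadherins at the membrane, was the catenin with the largest difference. It was at 11.4, 19.1, 13.5, 14.7 and 15.8 CPM in corpuscles 1 to 5 and at 92.9 to 166 CPM in skin (median 138 CPM). The corpuscles lay close together and far under every skin library, with a log2 fold change of -3.18 ± 0.25 (adjusted p = 2.09e-07), a fitted fold of 9.06 in favour of skin. All 22 alternatives called it. Its paralogue CTNND2 (delta-catenin, known from neurons) was at 48.2, 34.0, 55.6, 146 and 61.6 CPM in corpuscles 1 to 5 and at 54.4 to 78.8 CPM in skin (median 61.3 CPM). It was not called (log2 fold change 0.12 ± 0.33, adjusted p = 0.765), and its sign turned without corpuscle 4, its highest library (log2 fold change -0.34, adjusted p = 0.183). CTNND2 held 53.7% to 86.6% of the summed FPKM of the 2 genes in corpuscles and 17.9% to 28.7% in skin, without overlap.

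ARVCF and PKP4, relatives of p120-catenin named otherwise and so outside the set, also fell, with log2 fold changes of -1.21 ± 0.28 and -1.45 ± 0.39 (adjusted p = 0.00182 and 0.00533). Over these 4 relatives, grouped after their values were seen, CTNND1 made up 7.61% of summed FPKM in corpuscles on average and 25.6% in skin.

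Beta-catenin (CTNNB1), which serves both adhesion and Wnt signalling, was at 359, 526, 592, 289 and 174 CPM in corpuscles 1 to 5 and at 604 to 756 CPM in skin (median 675 CPM). Corpuscle 3 came close to the lowest skin library without reaching it, while corpuscle 5 was far below. The log2 fold change was -0.80 ± 0.26 (adjusted p = 0.0163), and the call was lost with the stricter filter (log2 fold change -0.53, adjusted p = 0.0903). It was also not called within corpuscles 1 to 3 and skin 1 to 4 (log2 fold change -0.46, adjusted p = 0.0821) and was called in the subset of corpuscles 4 and 5 with skin 5 and 6 (log2 fold change -1.52, adjusted p = 0.021). The difference between those subsets was not tested. Alpha-E-catenin (CTNNA1), the actin-binding partner, was at 503, 446, 289, 209.7 and 421 CPM in corpuscles 1 to 5 and at 398 to 454 CPM in skin (median 417 CPM). Its groups overlapped and it was not called (log2 fold change -0.17 ± 0.21, adjusted p = 0.511).

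The neural alpha-catenin CTNNA2 was at 9.58, 3.86, 12.1, 72.7 and 6.93 CPM in corpuscles 1 to 5 and at 46.4 to 84.0 CPM in skin (median 53.9 CPM). Corpuscle 4 lay within the skin range and the 4 others far under it. Over all libraries the log2 fold change was -1.56 ± 0.61 (adjusted p = 0.0417), and without corpuscle 4 it was larger (log2 fold change -2.92, adjusted p = 1.55e-05). The call was lost without corpuscle 1, 2, 3 or 5 or skin 1, 2, 3, 4 or 5 (log2 fold changes -1.61 to -1.29, adjusted p = 0.0516 to 0.09). It held in 10 of 22 alternatives. CTNNA3, an alpha-catenin of heart and testis in mammals, averaged 14.8 ± 4.26 CPM over corpuscles and 5.70 ± 1.85 CPM over skin libraries and rose by 1.37 ± 0.35 (adjusted p = 0.00375). The CTNNA3 call was lost in the subset of corpuscles 4 and 5 with skin 5 and 6 (log2 fold change 1.63, adjusted p = 0.0647). It overlapped through corpuscle 5, was the single catenin that rose, and at 1.61 FPKM lay under the unrelated-organ level.

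Of the 3 catenin-related genes 1 rose and 0 fell (all genes tested, 33.0% higher and 23.5% lower). CTNNBIP1, an inhibitor that keeps beta-catenin from TCF factors, was at 87.5, 138, 136, 71.3 and 33.2 CPM in corpuscles 1 to 5 and at 50.0 to 57.8 CPM in skin (median 52.5 CPM). Corpuscles 1 to 4 lay above skin and corpuscle 5 below it. The log2 fold change was 0.81 ± 0.31 (adjusted p = 0.0345), and the call was lost without corpuscle 1, 2 or 3 or skin 1, 2, 4, 5 or 6 (log2 fold changes 0.63 to 0.82, adjusted p = 0.053 to 0.102). The CTNNBIP1 call held in 11 of 22 alternatives. CTNNAL1 (alpha-catulin), a scaffold related to alpha-catenin, was at 292, 127, 253, 89.8 and 255 CPM in corpuscles 1 to 5 and at 157 to 322 CPM in skin (median 237 CPM), with no call (log2 fold change -0.19 ± 0.30, adjusted p = 0.596). CTNNBL1, a splicing-associated protein that shares the armadillo fold, was at 43.9, 53.8, 65.6, 14.7 and 66.3 CPM in corpuscles 1 to 5 and at 33.0 to 43.7 CPM in skin (median 35.1 CPM). Corpuscle 4 was far under the rest, and the gene was not called (log2 fold change 0.42 ± 0.33, adjusted p = 0.302) but was called higher without corpuscle 4 (log2 fold change 0.65, adjusted p = 0.0143).

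Per length, the order of levels was shared at the top. CDH11, CTNNB1, CTNNA1 and CTNNAL1 held ranks 1 to 4 in both tissues. Of the 10 highest genes 5 were the same in corpuscles and skin, those 4 and CDH13. The other 5 were CDH2, PCDH7, PCDH9, CTNNBIP1 and PCDH20 in corpuscles, and FAT1, FAT4, PCDH18, CDH5 and CTNND1 in skin. PCDH7 moved from rank 27 in skin to rank 7 in corpuscles and PCDH9 from rank 29 to rank 8. Corpuscle levels of CDH2 and PCDH7, at 41.3 ± 16.0 and 40.3 ± 14.1 FPKM, did not differ beyond their spread.

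Among the 14 classical cadherins, CDH11 made up 55.9% to 77.9% of their summed FPKM in corpuscles and 63.2% to 75.4% in skin, so that these shares overlapped. CDH2 took 13.9% to 28.8% in corpuscles and 5.80% to 9.01% in skin. CDH5 took 0.25% to 1.48% and 13.95% to 19.4%. The shares of both genes separated the tissues in every library, in opposite directions. The type I genes together held 17.9% to 34.4% in corpuscles and 7.21% to 13.5% in skin. CDH2 exceeded CDH1 everywhere, with 87.7% to 97.8% of their sum in corpuscles and 77.8% to 89.7% in skin. These shares describe proportions of message and were not tested.

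**Figure D4:**
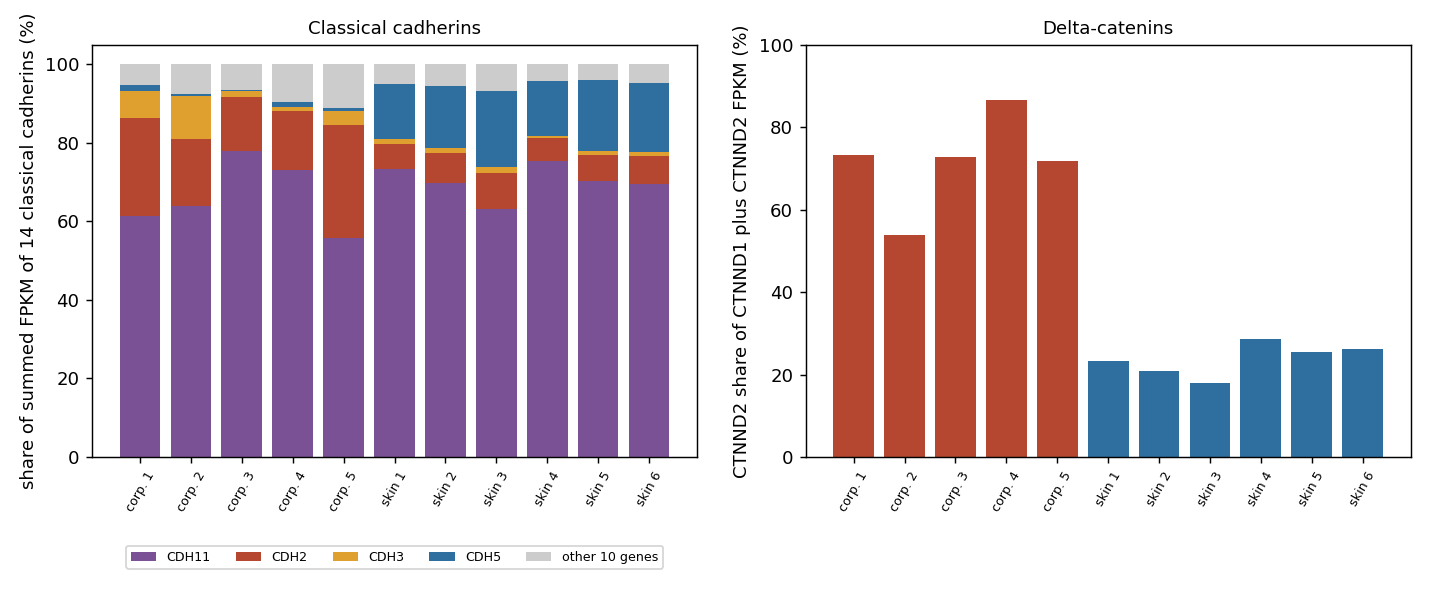
Left, share (%) of the summed FPKM of 14 classical cadherins held by CDH11, CDH2, CDH3, CDH5 and the other 10 genes in each library. Right, share (%) of CTNND2 in the sum of CTNND1 and CTNND2, with corpuscles in red (53.7% to 86.6%) and skin in blue (17.9% to 28.7%).

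Spread between libraries was wider in corpuscles. The coefficient of variation over libraries was higher in corpuscles than in skin for 41 of the 46 genes, with medians of 48.4% and 20.5%. CTNND1 was among the steadiest in corpuscles at 19.1%, while CDH20 reached 151%, CTNNA2 138% and PCDH12 103%. In skin CDH2 varied by 3.60%. The wider spread was not particular to this set. Over the whole table chi-square per degree of freedom was 90.5 to 193 between pairs of corpuscle libraries and 11.6 to 51.9 between pairs of skin libraries. Depth, which was lower in corpuscles, and the kit moved with this spread, and their part was not tested.

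Other genes of cell adhesion and polarity gave 9 higher and 21 lower of 53, with a median log2 fold change of -0.54. The called share, 56.6%, was near the 56.4% of all genes tested. The counts moved with scaling and single libraries, to 13 and 19 with upper-quartile factors, 15 and 27 without corpuscle 4, and 5 and 20 without skin 6. Of the 5 desmosome genes measured, which join epithelial cells, 4 fell. DSP and PKP1 are also on the keratinocyte marker list. Desmoplakin (DSP), which ties desmosomes to keratin, fell with a log2 fold change of -4.10 ± 0.49, PKP1 (plakophilin 1) of -3.42 ± 0.46 and DSG2 (desmoglein 2) of -2.46 ± 0.52. Junction partners gave 7 higher and 10 lower of 28. Afadin (AFDN), which joins nectins to actin, averaged 37.8 ± 15.9 CPM over corpuscles and 208 ± 27.7 CPM over skin libraries and fell with a log2 fold change of -2.46 ± 0.30 (adjusted p = 9.04e-06). ALCAM, an immunoglobulin-type adhesion protein, and PTPRM, a phosphatase that binds cadherin complexes, fell with log2 fold changes of -2.25 ± 0.44 and -2.14 ± 0.26.

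Vinculin (VCL), which binds alpha-catenin under tension, rose, from 195 ± 12.1 CPM in skin to 272 ± 42.5 CPM in corpuscles (0.48 ± 0.17, adjusted p = 0.0218). Its libraries overlapped, with corpuscle 4 at 211 CPM and skin 2 at 216 CPM. The 6 other junction partners that rose, named with VCL after their values were seen, were the immunoglobulin-type adhesion genes CADM1, CADM2, CHL1, NCAM2 and NFASC and the phosphatase PTPRT. Their log2 fold changes, 0.81 (PTPRT) to 1.83 (CADM2), were all larger than that of VCL, and only CADM1 had no overlap. Planar polarity and Fat signalling genes gave 2 higher and 7 lower of 20. SCRIB, a polarity scaffold, averaged 42.4 ± 18.1 CPM over corpuscles and 175 ± 8.12 CPM over skin libraries and fell with a log2 fold change of -2.04 ± 0.26 (adjusted p = 1.19e-05). PRICKLE2, of the polarity pathway, and TEAD1, the DNA-binding partner of YAP1, fell with log2 fold changes of -1.77 ± 0.46 and -1.46 ± 0.25. The 2 that rose, named after their values were seen, were YAP1 (1.35 ± 0.27, adjusted p = 0.000527) and LIX1L (0.79 ± 0.31, adjusted p = 0.0416). In both the corpuscle and skin libraries overlapped.

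The authors' deposited table gives a false discovery rate under 0.05 to 31 of the 46 genes. Of the 30 called here 29 had the same direction and passed there, and CDH13 did not. DCHS2 and CDH26 passed in the authors' deposited table and were not called or not tested here.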

How the data were processed

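RNA-seq compared 5 Meissner corpuscle and 6 bill skin libraries of duck, grouped by their titles. The genes described and the lists beside them were chosen with earlier results of these data known. The software listed in the submitters' processing notes comprises STAR 2.7.7a, Trimmomatic 0.39, CASAVA 1.8.2, Subread 2.0.1 with featureCounts, and R 4.2.1 with edgeR 3.38.4. The genome build, annotation and strand setting are not given in the sources used here. The authors deposited a raw count per gene and library, and these counts entered the tests. The deposited normalized values, a signal equal to the count divided by 1 factor per library, served only to check the counts. The deposited FPKM, scaled by the authors for gene length and depth, served to compare levels between genes. The authors' deposited table also gives a log2 fold change, a p-value and an FDR per gene, and these are quoted only where named.

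Of 16823 genes 147 had no count. Genes were filtered with filterByExpr, scaled with TMM factors and fitted with edgeR's robust quasi-likelihood model (version 4.0.16 in R 4.3.3) on all 11 libraries without covariates, and p-values were adjusted by Benjamini-Hochberg over all 14638 genes tested, with a threshold of 0.05. The same fit was also run on simulated counts built from the means and dispersions of these libraries, and its outcome is not reported here. Genes of the set with a mean of at least 20 CPM in either tissue are given library by library, together with CDH1, CDH2, CDH5, CTNNA1, CTNNB1, CTNND1, FAT1 and CELSR1, and the others by means. From each adhesion list the 3 called genes with the largest fold changes among those with at least 10 CPM and no overlap are named. A count of 3 equals 0.135 to 0.475 CPM on TMM-scaled library sizes. Depth limits precision by counting error, and any other effect of depth was not tested. Replicate pairs differed by at least 11.6 times the sampling noise, as chi-square per degree of freedom, so none was counted as a duplicate. The 22 alternatives covered scaling, filters, DESeq2 1.42.0, limma-voom (limma 3.58.1), abundant genes, a replicate block, each library left out in turn, and 3 subsets of libraries. Sequences and coordinates are not given.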

Additional observations from a re-analysis of the deposited data

Results flagged for a closer look

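Within-tissue outlying libraries were sought for the 31 genes given library by library, in 62 groups of 5 or 6 libraries, on log2(CPM + 1). Dixon's criterion marked 5 values, and chance marks about 1 in 20 groups. CTNNBL1 in corpuscle 4 was the lowest of the corpuscles at 14.73 CPM. PCDH18 in corpuscle 3 was the lowest of the corpuscles at 49.11 CPM. In skin, CELSR1 was lowest in skin 4 at 38.85 CPM, and PCDH11X was lowest in skin 2 at 9.487 CPM. FAT3 was highest in skin 6 at 77.28 CPM.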

How the results depend on the processing

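Of the 18 higher and 12 lower genes, 8 and 5 were called the same way in every alternative that gave a value: PCDH7, PCDH9, PCDH20, CDH6, CDH8, CDH9, CDH17 and CDH22, and CDH5, CTNND1, DCHS1, FAT1 and FAT4. The 5 CPM minimum removed CDH6, CDH9 and CDH17, so it gave no value for them. CDH6 and CDH9 passed the main filter only through corpuscles. CDH6, CDH8, CDH9, CDH17 and CDH22 lay under the unrelated-organ level, at 0.646 to 1.13 FPKM in corpuscles. Leaving out 1 library at a time gave 16 to 19 genes of the set higher and 9 to 13 lower, 4200 to 5108 of all genes higher and 3088 to 3903 lower, and 5 to 15 other adhesion genes higher and 19 to 27 lower. The 5 came without skin 6 and the 15 without corpuscle 4. A minimum of 5 CPM in 5 libraries left 6 genes of the set and 2486 of all genes lower. With corpuscles 4 and 5 left out 15 other adhesion genes were higher. In the subset of corpuscles 4 and 5 with skin 5 and 6, a fit of 4 libraries, the set gave 10 higher and 7 lower. All genes gave 3776 higher and 1514 lower there, and the adhesion list 1 higher and 10 lower. Same-numbered libraries did not deviate together (correlations -0.154 to 0.134), so replicate numbers were not taken as pairs. Corpuscles 4 and 5 correlated weakly with skin 5 and 6 (0.076 to 0.158), and corpuscles 1 to 3 went against them (-0.164 to -0.067). The largest correlation lay outside that split, 0.245 between corpuscle 3 and skin 4. The labels name no batch, and what these libraries share was not tested. A replicate block gave 12 genes of the set higher and 9 lower, and 3485 of all genes higher and 3552 lower. It gave 5 adhesion genes higher, with CTNND2 at -0.084. The median log2 fold change over shared genes shifted by 0.15 with upper-quartile factors, 0.28 with the 5 CPM minimum, -0.16 with limma-voom and -0.23 with the block. Over the 31 genes given library by library and 22 alternatives, 579 values kept direction and call, 14 gained a call, 75 lost one and 14 turned sign. Among the other genes PCDH12 turned sign in 5 alternatives and FAT2 in 1, and the call was not kept in 6 for CDH20, 3 for CDH4 and 1 each for CDH15, CTNNA3 and PCDH8. The 5 CPM minimum turned CDH1 (0.0018), CELSR1 (0.0032), CTNNA1 (0.094), CTNNAL1 (0.068) and PCDH1 (0.0061). CDH1 also turned without corpuscles 4 and 5 (0.26) and within corpuscles 1 to 3 and skin 1 to 4 (0.14), against -1.41 in the 4-library subset. CTNND2 turned with limma-voom (-0.11), without corpuscle 4 (-0.34, against 0.29 without corpuscle 2), without corpuscles 4 and 5 (-0.47) and within corpuscles 1 to 3 and skin 1 to 4 (-0.35). CTNNBIP1 (-0.00084) and PCDH17 (-0.092) turned in the 4-library subset. The cause of these changes was not tested.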

Other observations

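The type II cadherins CDH10 and CDH12, both known from the nervous system, are listed in the deposited table under locus identifiers only and were matched through RefSeq, so they stand outside the set chosen by name. CDH10 averaged 13.1 ± 10.7 CPM (SD) over corpuscles and 0.686 ± 0.314 CPM over skin libraries, with no overlap. Its log2 fold change was 4.22 ± 0.59 (SE), with an adjusted p of 2.52e-05 by edgeR's quasi-likelihood test. CDH12 averaged 8.80 ± 5.62 CPM over corpuscles and 3.29 ± 1.11 CPM over skin libraries, and its libraries overlapped. Corpuscle 4 was its highest library, at 18.4 CPM against 3.61 to 8.34 CPM in the other corpuscles. Its log2 fold change was 1.41 ± 0.44 (SE), with an adjusted p of 0.0122. Per length they stood at 1.95 and 0.945 FPKM in corpuscles, under the 95th percentile of genes proper to other organs.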
